A study of Mus musculus with 9 samples.

Results

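The constitutive proteasome subunits are the genes of the large protease that degrades ubiquitin-tagged proteins in every cell. They were chosen by symbol, as every Psma, Psmb, Psmc or Psmd gene with a number except Psmb8, Psmb9 and Psmb10, the inducible immunoproteasome subunits. This gave 36 of the 38926 gene symbols in the count tables, 16 of the core particle (Psma and Psmb) and 20 of the regulatory particle (Psmc and Psmd). The rule used no measured value.

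The series profiled mouse leukaemia cells that carry the MLL-AF9 fusion, taken after tertiary transplantation into mice, by sequencing of RNA primed at its poly(A) tail. All 9 libraries came from cells transduced with a short hairpin RNA (shRNA) and collected at day 4. There were 3 libraries with shRNA-1 and 3 with shRNA-2, both against Syncrip, a member of the hnRNP family that binds RNA, and 3 with a control hairpin, which the sample labels call scrambled and the design text names as one against luciferase. Each sample was transduced and processed on its own. The sources used here do not say whether separate mice gave the cells, so p-values cover only the spread among these samples, which may be technical.

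As background, the core particle is a barrel of stacked rings. The outer alpha rings gate the entrance, and the inner beta rings carry the proteolytic sites inside. The regulatory particle caps the barrel. Its base holds a ring of ATPases that unfold substrates and thread them inward, and its lid holds the enzyme that removes ubiquitin before degradation. Subunits are made to go into 1 complex in fixed proportions, and in mammalian cells the transcription factor NFE2L1 drives many of these genes together when proteasome activity falls short. Haematological cancers are known for their sensitivity to drugs that block the catalytic site of PSMB5.

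The promoters of 4 subunits are shown as examples. Psma7, Psmb5 and Psmc1 changed with both hairpins, and Psmc6 was among the ATPases that fell with shRNA-2. Each window runs 5′ to 3′ in the gene's own direction, from 250 bases before to 50 bases after the start, as given by RefSeq on GRCm38.p6. Capitals mark matches to any of 3 motifs searched on both strands. These were the antioxidant response element TGACNNNGC, which NFE2L1 can bind, the ETS site CCGGAAG and the CCAAT box. Psma7 (chr2:180042415-180042714, minus strand) and Psmb5 (chr14:54617946-54618245, minus strand) belong to the core particle, and Psmc1 (chr12:100109952-100110251, plus strand) and Psmc6 (chr14:45329574-45329873, plus strand) to the ATPase ring.
Psma7: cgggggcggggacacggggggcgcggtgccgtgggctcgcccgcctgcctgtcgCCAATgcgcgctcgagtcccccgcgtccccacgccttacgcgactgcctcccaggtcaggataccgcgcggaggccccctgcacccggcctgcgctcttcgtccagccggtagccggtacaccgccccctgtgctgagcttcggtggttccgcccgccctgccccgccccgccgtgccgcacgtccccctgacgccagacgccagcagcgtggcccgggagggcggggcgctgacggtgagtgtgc
Psmb5: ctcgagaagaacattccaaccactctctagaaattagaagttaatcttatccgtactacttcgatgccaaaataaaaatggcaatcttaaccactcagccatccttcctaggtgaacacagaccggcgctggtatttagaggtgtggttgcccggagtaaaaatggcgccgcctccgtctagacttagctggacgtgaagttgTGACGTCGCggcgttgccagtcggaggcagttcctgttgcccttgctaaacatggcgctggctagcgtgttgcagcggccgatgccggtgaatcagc
Psmc1: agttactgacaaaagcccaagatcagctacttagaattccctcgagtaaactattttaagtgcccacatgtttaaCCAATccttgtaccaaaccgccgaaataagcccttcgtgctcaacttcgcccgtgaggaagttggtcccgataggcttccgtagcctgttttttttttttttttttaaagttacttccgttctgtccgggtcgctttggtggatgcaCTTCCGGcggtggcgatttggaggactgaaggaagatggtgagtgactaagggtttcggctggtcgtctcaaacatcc
Psmc6: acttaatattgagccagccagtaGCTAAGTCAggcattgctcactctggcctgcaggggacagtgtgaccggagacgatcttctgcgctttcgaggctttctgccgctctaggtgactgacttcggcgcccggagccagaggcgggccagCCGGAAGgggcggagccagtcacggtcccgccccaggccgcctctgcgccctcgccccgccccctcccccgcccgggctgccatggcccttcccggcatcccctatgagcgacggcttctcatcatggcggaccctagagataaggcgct
Of the 36 subunits, 29 had a window. The antioxidant response element stood in 5 of them (Psmb5, Psmb6, Psmc6, Psmd9 and Psmd12), against 12.4% of all 32851 windows in the table. The ETS site stood in 10 of 29, with 1 of 12 core subunits (Psma6) and 9 of 17 regulatory subunits, against 8.86% of all windows. The CCAAT box stood in 12 of 29, with 7 of 12 core and 5 of 17 regulatory subunits, against 37.4% of all windows. No motif overlapped another in the windows shown, and a match is a run of letters, not a measured binding site. Psma8, Psmb1, Psmb2, Psmb7, Psmc3, Psmd3 and Psmd7 had no window. Each window shown holds a motif, but the examples do not stand for all changed subunits. Psma5, which rose with both hairpins, and Psmc4 and Psmc5, which fell with shRNA-2, have windows that hold none of the motifs.

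The libraries held 9559638 to 19483923 counts, of which the 36 subunits took 0.770% to 0.981%. Syncrip, the targeted gene, stood at 241, 231 and 207 CPM in the controls, 20.1, 15.9 and 17.3 CPM with shRNA-1 and 63.2, 46.3 and 60.4 CPM with shRNA-2. CPM scales each gene's counts by its library size, corrected with TMM (trimmed mean of M-values) factors. It fell by 3.68 ± 0.16 (log2, ± standard error) with shRNA-1 and by 2.00 ± 0.15 with shRNA-2, and no library overlapped the other groups. Leukaemia identity genes summed to 1829 to 1963 CPM in control libraries, 1517 to 1565 CPM under shRNA-1 and 1558 to 1774 CPM under shRNA-2, and none of the 9 was at 0. With each hairpin, 5 of the 9 were called lower and 1 higher, and 4 fell with both. The lowest changes were -2.10 with shRNA-1 and -2.13 with shRNA-2. Over all genes, 17.3% and 24.2% were called lower and 17.4% and 24.4% higher. The 10 neutrophil markers summed to 13463 to 14197 CPM, 34985 to 40669 and 38687 to 54157 in that order, a sum carried mostly by S100a8 and S100a9, and the 9 macrophage markers to 133 to 170.1, 146 to 251 and 618 to 1102. All 10 neutrophil markers were called higher with shRNA-1. With shRNA-2, 7 were called higher and 2 lower, the latter being Mpo at -1.30 (adjusted p = 0.00219) and Ltf at -1.15 (adjusted p = 0.000351). T cell markers reached at most 4.80 CPM with Cd3g and Cd8a at 0 counts in all groups, B cell markers at most 17.8 CPM with Cd79a at 0, and erythroid markers at most 1.11 CPM with Alas2 at 0. Ribosomal RNA genes, here Gm26924 and the mitochondrial mt-Rnr1 and mt-Rnr2, took 4.77% to 8.29% of the control counts. They took 11.98% to 19.3% under shRNA-1 and 6.10% to 15.8% under shRNA-2. The subunit calls that ended in a fit with this share as a covariate are named beside the genes. In bulk RNA, fewer cells of a type and less RNA per cell cannot be told apart.

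The subunits did not move as 1 block. With shRNA-1, 13 of the 34 subunits tested rose and 2 fell, and 8 of the 13 were core subunits, led by Psma5 and Psma1. With shRNA-2, 4 rose, all in the core, and 8 fell, among them 5 of the 6 ATPases. Of the 20 regulatory subunits chosen by symbol, none was called higher with shRNA-2 by edgeR, where 1 was at an unadjusted p under 0.05 and 1 by DESeq2. The lid subunit Shfm1, outside the rule, was called higher with both hairpins. Psma5, Psma7, Psmb2 and Psmb5 rose with both hairpins and Psmc1 fell with both. Changes under 1.5-fold made up 70.6% of the subunits with shRNA-1 and 82.4% with shRNA-2, beside 66.8% and 56.6% of all genes tested.

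These calls are from edgeR's quasi-likelihood test over 12663 genes, with a Benjamini-Hochberg adjusted p under 0.05. Over all genes, 17.4% were called higher and 17.3% lower with shRNA-1, and 24.4% higher and 24.2% lower with shRNA-2. Against these, the subunits were called higher more often than all genes with shRNA-1 (38.2%) and less often lower (5.88%), while with shRNA-2 the shares were 11.8% and 23.5%, and these differences were not tested. Same-direction calls with both hairpins, which share the 3 control libraries, covered 9.24% of all genes for rises and 9.57% for falls. Among the 34 subunits there were 4 such rises, near the share of all genes, and 1 such fall. These differences were not tested. The median log2 fold change of the 34 was 0.22 with shRNA-1 and -0.029 with shRNA-2, beside 0.023 and 0.0043 over all genes.

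How the libraries were scaled set part of this direction. With total counts in place of TMM, the median of all genes moved to -0.23 and -0.21, the subunits' medians to -0.025 and -0.25, and the calls to 4 higher and 7 lower with shRNA-1 and 0 higher and 12 lower with shRNA-2, with 0 higher and 6 lower for both. All changes here are therefore relative to the bulk of genes. In the fit that took the ribosomal RNA share as covariate, a share that itself differs between the groups, the calls with shRNA-1 were the rise of Psma1 and the falls of Psmc1 and Psmd1, and those with shRNA-2 were 1 rise and 8 falls. Leaving out shRNA-1 replicate 3 or either of control replicates 2 and 3 gave 9 calls in place of 15 with shRNA-1, and leaving out control replicate 3 gave 7 in place of 12 with shRNA-2. Rises shared by both hairpins numbered 2 without shRNA-1 replicate 2, without shRNA-1 replicate 3 or without shRNA-2 replicate 3, and 0 without shRNA-2 replicate 2 or control replicate 3.

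**Figure D1:**
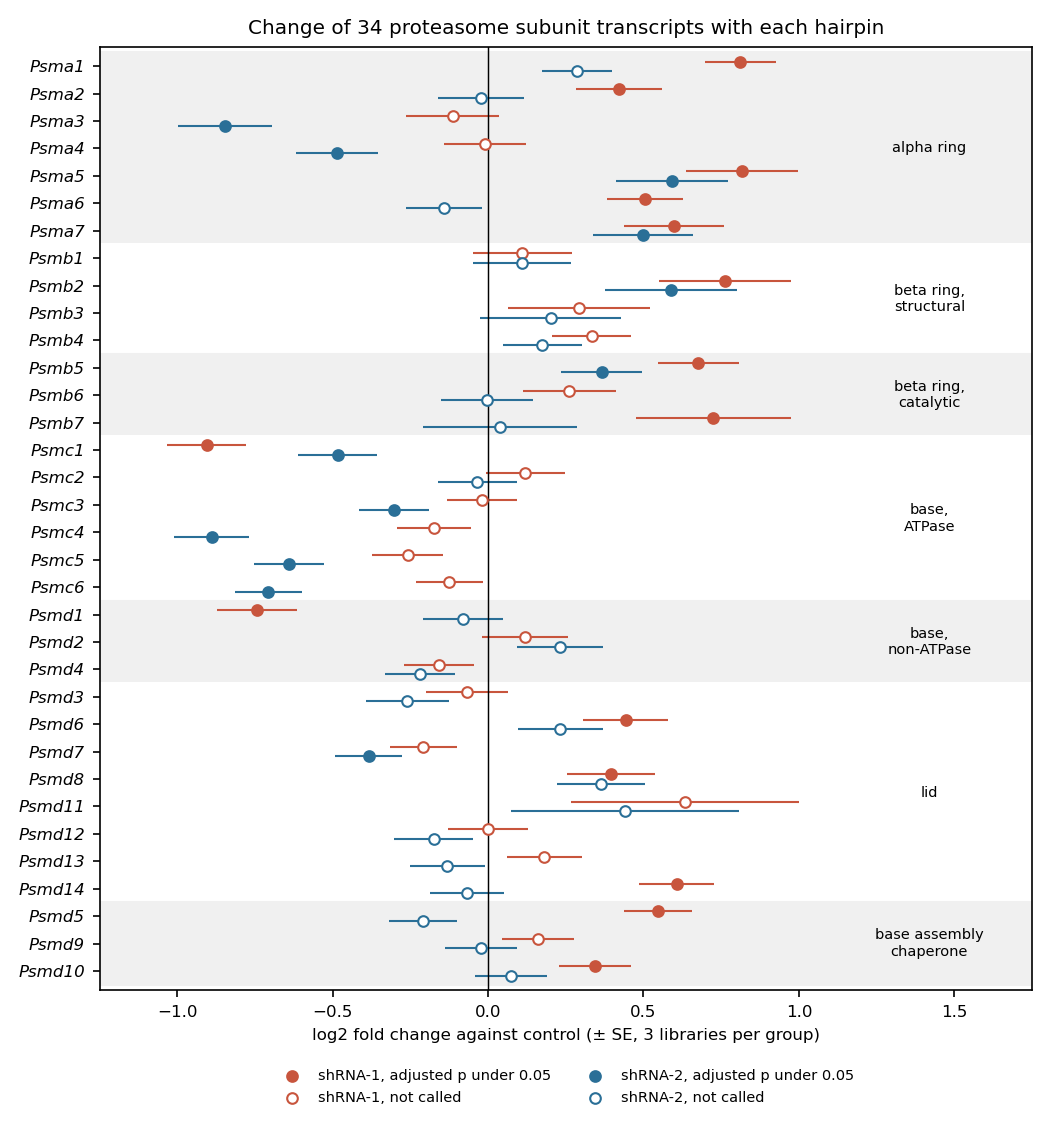
Log2 fold change (± standard error, 3 libraries per group) of the 34 tested subunits with each hairpin, ordered by place in the complex, where filled points passed the adjusted p and the scale is TMM. With shRNA-1 most alpha subunits lie right of 0 and the ATPase Psmc1 far left, and with shRNA-2 5 of the 6 ATPases lie left of 0 as filled points; with total counts all points shift left, and no subunit was then called higher with shRNA-2.

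In the alpha ring, whose amino-terminal tails form the gate of the barrel, 5 of 7 subunits rose under shRNA-1, while under shRNA-2 2 rose and 2 fell. The 71.4% higher with shRNA-1 stands beside 17.4% of all genes. The 28.6% higher and 28.6% lower with shRNA-2 stand beside 24.4% and 24.2%. Psma1 stood at 161, 139.6 and 132 CPM in the controls, 253, 255 and 252 CPM with shRNA-1 and 182, 175 and 170.4 CPM with shRNA-2. All shRNA-1 libraries lay above all others, with a log2 fold change of 0.81 ± 0.11 (adjusted p = 0.000488), and shRNA-2 gave 0.29 (adjusted p = 0.0519). The Psma1 gene lies at chromosome 7, 114264606 to 114276118, minus strand (GENCODE M21, GRCm38), and its call with shRNA-1 held in all 21 alternatives.

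Psma5 was counted at 133, 115 and 104 CPM in the controls, 228, 178 and 215 CPM with shRNA-1 and 202, 201 and 128 CPM with shRNA-2. The shRNA-1 libraries lay above the controls, while shRNA-2 replicate 3 overlapped them, with log2 fold changes of 0.82 ± 0.18 (adjusted p = 0.00514) and 0.59 ± 0.18 (adjusted p = 0.0169). Psma7 gave 674, 619 and 622 CPM in the controls, 873, 961 and 1064 CPM with shRNA-1 and 696, 1041 and 969.6 CPM with shRNA-2, above the controls in all 6 knockdown libraries, and rose by 0.60 ± 0.16 (adjusted p = 0.0143) and 0.50 ± 0.16 (adjusted p = 0.0228). Psma6 rose with shRNA-1 by 0.51 ± 0.12 (adjusted p = 0.00838), from 434 ± 19.5 to 616 ± 27.4 CPM (mean ± SD, n = 3), and was -0.14 with shRNA-2. Psma2 rose with shRNA-1 by 0.42 ± 0.14 (adjusted p = 0.0347) and was -0.022 with shRNA-2.

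Psma3 and Psma4 went the other way. Psma3 stood at 23.0, 27.0 and 23.7 CPM in the controls, 21.4, 22.0 and 24.6 CPM with shRNA-1 and 11.2, 16.3 and 13.5 CPM with shRNA-2. The shRNA-2 libraries were the lowest, with no overlap with either group, and the change was -0.85 ± 0.15 (adjusted p = 0.00074) with shRNA-2 against -0.11 with shRNA-1. Psma4 fell with shRNA-2 by 0.49 (adjusted p = 0.00959) and was -0.011 with shRNA-1. Reads of Psma3, Psma4 and Psma5 are uncertain, since 22.0%, 31.5% and 55.4% of their 50-base stretches also occur in transcripts of other genes, mostly pseudogenes, and the sources used here do not say how such reads were counted.

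The falls of Psma3 and Psma4 with shRNA-2 held in all 21 alternatives. The rise of Psma2 ended without shRNA-1 replicate 1, 2 or 3 or control replicate 2 or 3 (adjusted p up to 0.14), and also with total counts, no filter, the ribosomal RNA covariate or the trend over GC content taken out (up to 0.349). That of Psma7 with shRNA-1 ended without shRNA-1 replicate 3 or control replicate 2 (up to 0.0592), and with shRNA-2 without replicate 2 or 3 of either the hairpin or the control (up to 0.073). Both Psma7 calls also ended with total counts, the ribosomal RNA covariate or the trend over transcript length taken out (up to 0.453 and 0.126). Psma6 lost its call with these same 3 settings (up to 0.133), and Psma5 with shRNA-1 lost it with the covariate alone (0.103). The Psma5 rise with shRNA-2 ended without shRNA-2 replicate 2 or control replicate 3 (up to 0.0622), with total counts or with the length trend taken out (up to 0.0921). Alpha-ring rises with shRNA-1 thus numbered 2 with total counts, 3 with the length trend taken out and 1 with the covariate, and those with shRNA-2 numbered 0, 0 and 1.

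The beta ring held the 3 catalytic subunits, of which Psmb5 rose with both hairpins and Psmb7 with shRNA-1. Psmb5, the chymotrypsin-like site, stood at 45.7, 49.7 and 37.5 CPM in the controls, 67.1, 75.7 and 69.4 CPM with shRNA-1 and 53.1, 60.9 and 57.1 CPM with shRNA-2. Every knockdown library lay above the controls, and the changes were 0.68 ± 0.13 (adjusted p = 0.00243) and 0.37 ± 0.13 (adjusted p = 0.0343). Psmb7, the trypsin-like site, was at 195, 186 and 134 CPM in the controls, 340.4, 264 and 246 CPM with shRNA-1 and 252, 159.6 and 117 CPM with shRNA-2. The shRNA-1 libraries were the high ones and shRNA-2 spanned the controls, with 0.72 ± 0.25 (adjusted p = 0.0408) and 0.039 (adjusted p = 0.907). Psmb6, the caspase-like site, gave 250.1, 234 and 231 CPM in the controls, 278, 279 and 301 CPM with shRNA-1 and 188, 291 and 235 CPM with shRNA-2. All shRNA-1 libraries were above the controls and shRNA-2 spanned them, but neither change passed, at 0.26 (adjusted p = 0.193) and -0.0034 (adjusted p = 0.987).

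Among the 4 beta subunits without a catalytic site, Psmb2 rose with both hairpins. It stood at 134, 152 and 93.1 CPM in the controls, 223, 214 and 206 CPM with shRNA-1 and 207, 232 and 131 CPM with shRNA-2. The shRNA-1 libraries lay above the controls and shRNA-2 replicate 3 lay below control replicates 1 and 2, with 0.76 ± 0.21 (adjusted p = 0.0167) and 0.59 ± 0.21 (adjusted p = 0.0367). Psmb4 was 0.33 (adjusted p = 0.0599) and 0.17 (adjusted p = 0.276), Psmb3 was 0.29 and 0.20, and Psmb1 was 0.11 and 0.11, and none of these passed. The core subunits restricted to other tissues were near absent: Psmb11 of the thymus had 0 counts in all 9 libraries, which allows up to 0.154 to 0.314 CPM (3 counts per library, counting error only), and Psma8 of the testis had 1 to 6 counts per library. These 2 did not pass the filter on low counts and were not tested.

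None of the beta calls held in all alternatives. With the ribosomal RNA covariate no beta subunit was called with either hairpin, and it was the only setting that ended the Psmb5 rise with shRNA-1 (adjusted p = 0.0907). With total counts or with the length trend taken out, Psmb5 was the 1 beta call left with shRNA-1 and 0 were left with shRNA-2. Psmb7 also lost its call without any single control or shRNA-1 library (adjusted p up to 0.155), and Psmb2 with shRNA-1 without control replicate 3 (0.0675). With shRNA-2, Psmb2 lost it without shRNA-1 replicate 2, shRNA-2 replicate 1 or 2 or control replicate 1 or 3 (up to 0.133), with only the groups compared, with the GC trend taken out, or without both shRNA-1 replicate 3 and shRNA-2 replicate 1. Psmb5 with shRNA-2 lost it without shRNA-1 replicate 2 or 3, shRNA-2 replicate 2 or 3 or control replicate 3 (up to 0.116), with no filter or with only the groups compared. Over all alternatives the adjusted p reached 0.176 for Psmb7, 0.255 and 0.147 for Psmb2 and 0.372 for Psmb5 with shRNA-2. Exons of Psmb7 overlap those of Nek6 on the opposite strand, which averaged 20.3 CPM in control libraries, 17.5 CPM under shRNA-1 and 58.6 CPM under shRNA-2, and 55.8% of the 50-base stretches of Psmb3 and 57.1% of Psmb5 are shared with other genes' transcripts, so these levels are uncertain.

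**Figure D2:**
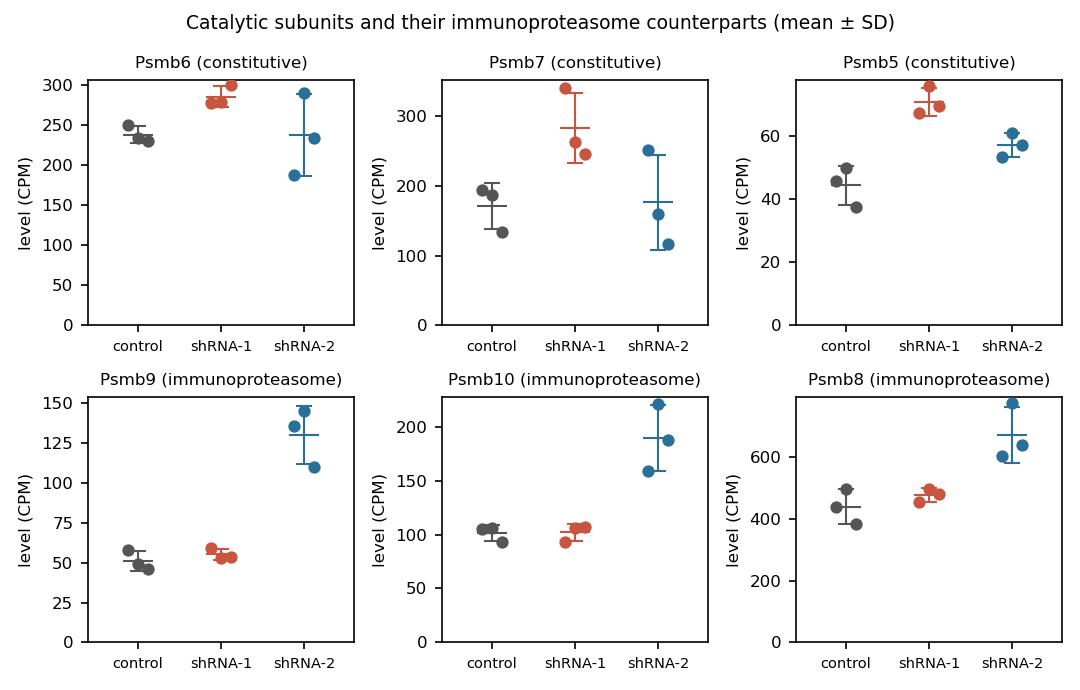
Level in CPM of the 3 constitutive catalytic subunits (upper row) and of the immunoproteasome subunit that takes the place of each (lower row), with points for libraries and bars for the mean ± SD of 3. Psmb5 is above the controls in all 6 knockdown libraries, while Psmb9, Psmb10 and Psmb8 are above the controls in the shRNA-2 libraries and overlap them with shRNA-1.

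In the ATPase ring, which unfolds substrates, 5 of 6 subunits fell with shRNA-2 (83.3%, beside 24.2% of all genes). Psmc1, Psmc3, Psmc4, Psmc5 and Psmc6 were called and Psmc2 was not, and the median of the 6 was -0.56, beside 0.0043 over all genes. With shRNA-1, Psmc1 alone passed, and the median was -0.15. With neither hairpin was any of the 6 called higher by edgeR, at an unadjusted p under 0.05 or by DESeq2, which each gave 0.

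Psmc1 encodes the ATPase whose carboxyl-terminal tail helps open the gate of the core. Its transcripts stood at 528, 529 and 623 CPM in the controls, 269, 321 and 307 CPM with shRNA-1 and 422, 373 and 407 CPM with shRNA-2. The 3 groups did not overlap, with the controls highest and shRNA-1 lowest. The fall was -0.91 ± 0.13 (adjusted p = 0.000526) with shRNA-1 and -0.48 ± 0.13 (adjusted p = 0.00794) with shRNA-2, and the gene lies at chromosome 12, 100110154 to 100123405, plus strand. Both calls held in all 21 alternatives, although 17.6% of its 50-base stretches are shared with other genes' transcripts.

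Psmc4, to which the chaperone gankyrin binds, was at 104, 123 and 115 CPM in the controls, 100.3, 92.1 and 111 CPM with shRNA-1 and 59.6, 66.7 and 58.8 CPM with shRNA-2. The shRNA-2 libraries were the lowest with no overlap, and shRNA-1 overlapped the controls, with -0.89 ± 0.12 (adjusted p = 0.000111) and -0.17 (adjusted p = 0.283). Psmc6, one of the ATPases held by the chaperone Psmd9 during assembly, gave 221, 191 and 210.2 CPM in the controls, 184, 195 and 192 CPM with shRNA-1 and 122, 128 and 132 CPM with shRNA-2. Again shRNA-2 alone was low, at -0.71 ± 0.11 (adjusted p = 0.000259) against -0.12 (adjusted p = 0.395).

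Psmc5 stood at 174, 169.7 and 161 CPM in the controls, 136, 137 and 149.6 CPM with shRNA-1 and 99.4, 105 and 120.0 CPM with shRNA-2. Its groups were ordered control, shRNA-1, shRNA-2 without overlap, at -0.64 ± 0.11 (adjusted p = 0.000704) with shRNA-2 and -0.26 (adjusted p = 0.0972) with shRNA-1. Psmc3, the partner of Psmc6 in the ring, had 413, 438 and 398 CPM in the controls, 398, 417 and 418 CPM with shRNA-1 and 311, 355 and 347 CPM with shRNA-2. The shRNA-2 libraries were the lowest, at -0.30 ± 0.11 (adjusted p = 0.0437), and shRNA-1 was -0.019. Psmc2 had 184, 177 and 159 CPM in the controls, 183, 175 and 207 CPM with shRNA-1 and 147, 182 and 179.5 CPM with shRNA-2, with overlap between all groups and changes of 0.12 (adjusted p = 0.496) and -0.035 (adjusted p = 0.836).

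The shRNA-2 falls of Psmc1, Psmc4, Psmc5 and Psmc6 held in all 21 alternatives, with total counts, the ribosomal RNA covariate and the length trend among them. That of Psmc3 ended in 13 of the 21, which left 4 ATPases called. These were the omission of any single library other than shRNA-2 replicate 2 (adjusted p up to 0.142), of shRNA-1 replicate 3 with shRNA-2 replicate 1 or of the ribosomal RNA genes, no filter, 5 CPM in 3 libraries, and only the groups compared. The opposite-strand gene Slc39a13, whose exons overlap those of Psmc3, was at 4.97 to 10.3 CPM.

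**Figure D3:**
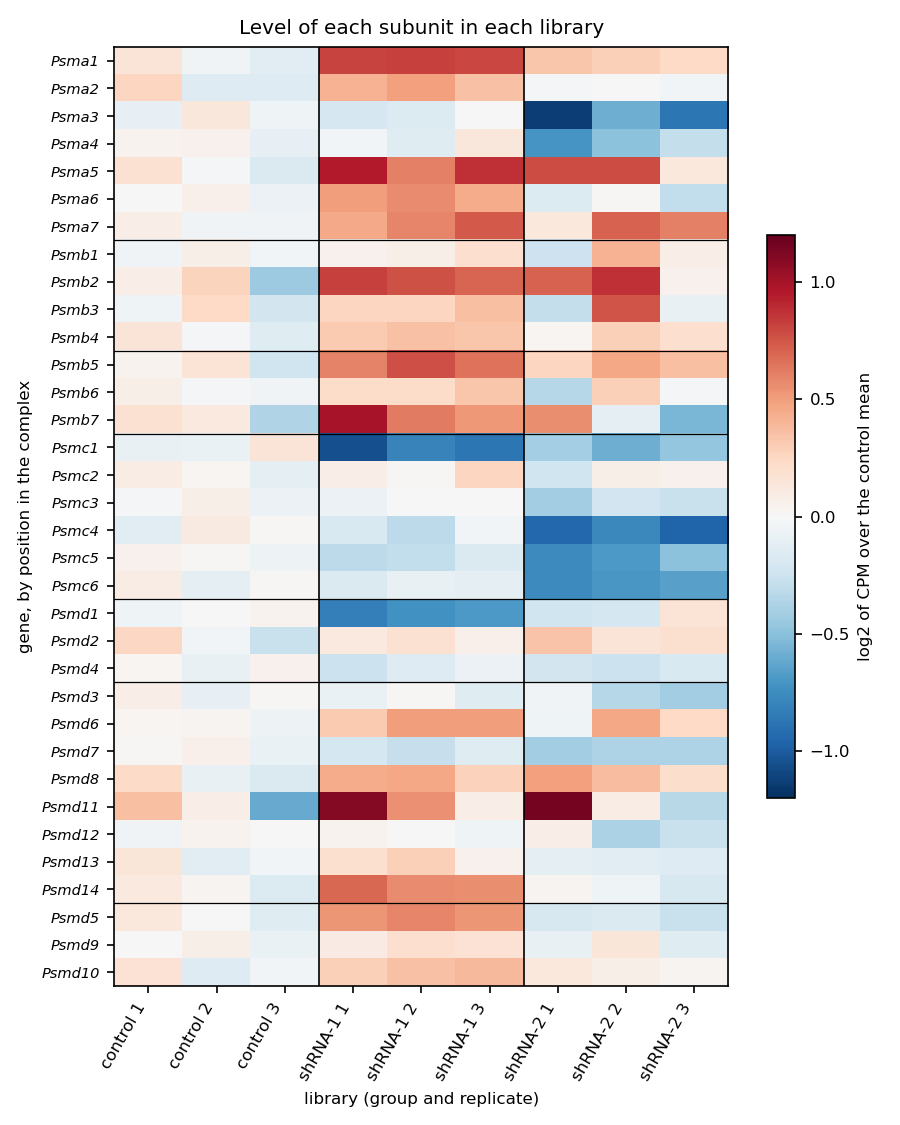
Level of each tested subunit in each of the 9 libraries as log2 of its TMM-scaled CPM over the control mean, with red above and blue below, and lines between the parts of the complex and between the groups. Psma1, Psma5 and Psmb2 are red in the 3 shRNA-1 libraries, and Psma3 and 4 of the ATPases (Psmc1, Psmc4, Psmc5 and Psmc6) are blue in the 3 shRNA-2 libraries.

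In the rest of the base, Psmd1 fell with shRNA-1. Psmd1, a large scaffold that anchors a ubiquitin receptor and the deubiquitinase Uchl5, stood at 226, 235 and 239.8 CPM in the controls, 132, 141 and 145 CPM with shRNA-1 and 198, 202 and 262 CPM with shRNA-2. The shRNA-1 libraries were the lowest and shRNA-2 overlapped the controls, with -0.74 ± 0.13 (adjusted p = 0.00143) and -0.080 (adjusted p = 0.63). The gene lies at chromosome 1, 86064387 to 86139151, plus strand, and the call with shRNA-1 held in all 21 alternatives.

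Psmd2, the other scaffold, which docks ubiquitin shuttle proteins, had 234, 193 and 164 CPM in the controls, 213, 224 and 205 CPM with shRNA-1 and 249, 219 and 225 CPM with shRNA-2. All groups overlapped, at 0.12 (adjusted p = 0.532) and 0.23 (adjusted p = 0.188). Psmd4, a ubiquitin receptor of the base, had 420.2, 389 and 429 CPM in the controls, 344, 371 and 394 CPM with shRNA-1 and 355, 346 and 364 CPM with shRNA-2. The shRNA-2 libraries lay below the controls, but the changes of -0.16 (adjusted p = 0.302) and -0.22 (adjusted p = 0.131) did not pass.

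In the lid, Psmd6, Psmd8 and Psmd14 rose with shRNA-1 and Psmd7 fell with shRNA-2. Psmd14, the metalloprotease that cuts ubiquitin chains from substrates, stood at 184, 174 and 151 CPM in the controls, 273, 251 and 250.3 CPM with shRNA-1 and 173, 164 and 148 CPM with shRNA-2. Only the shRNA-1 libraries were high, without overlap, at 0.61 ± 0.12 (adjusted p = 0.00285) against -0.069 (adjusted p = 0.661) with shRNA-2. Psmd7 pairs with Psmd14 in the lid and did not move with it: it stood at 378, 388 and 354 CPM in the controls, 324, 309 and 337 CPM with shRNA-1 and 281, 289 and 289 CPM with shRNA-2. Here the controls were the highest and shRNA-2 the lowest, without overlap, at -0.21 (adjusted p = 0.155) and -0.38 ± 0.11 (adjusted p = 0.0116).

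The 6 other lid subunits among the chosen symbols are scaffold proteins. The lid subunit Shfm1, outside the rule, rose with both hairpins and is given below with the bound cofactors. Psmd6 rose with shRNA-1 by 0.44 ± 0.14 (adjusted p = 0.0256) and was 0.23 with shRNA-2, and Psmd8 rose by 0.40 ± 0.14 (adjusted p = 0.0479) and was 0.36 (adjusted p = 0.0507). Psmd3, Psmd12 and Psmd13 lay between -0.068 and 0.18 with shRNA-1 and between -0.26 and -0.13 with shRNA-2, and none passed. Psmd11 had the largest standard error of the 34 subunits, and stood at 223, 183 and 114 CPM in the controls, 371, 253 and 182 CPM with shRNA-1 and 383, 184 and 137 CPM with shRNA-2. All groups overlapped, and its changes of 0.63 ± 0.37 and 0.44 ± 0.37 did not pass (adjusted p = 0.2 and 0.344).

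The Psmd6 call ended without shRNA-1 replicate 2 or 3 or any control (adjusted p up to 0.0924), and the Psmd8 call without any shRNA-1 library, without shRNA-2 replicate 3 or without control replicate 2 or 3 (up to 0.176). Both also ended with total counts, the ribosomal RNA covariate or the length trend taken out (up to 0.584 and 0.449), and Psmd8 with no filter, DESeq2 size factors or the ribosomal RNA genes left out. Lid rises with shRNA-1 among the chosen symbols thus numbered 0 with the covariate and 1, that of Psmd14, with total counts or the length trend taken out. The covariate was the only setting that ended the Psmd14 rise (adjusted p = 0.0536), and the Psmd7 fall held in all 21. The 50-base stretches shared with other genes came to 26.4% for Psmd2, 18.9% for Psmd11 and 15.8% for Psmd13, whose exons overlap Sirt3 on the opposite strand (3.93 to 9.22 CPM).

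Of the 3 chaperones that help assemble the base and leave the finished complex, Psmd5 and Psmd10 rose with shRNA-1. Psmd5, which holds Psmc1, Psmc2 and Psmd2 together during assembly, stood at 92.0, 84.4 and 76.1 CPM in the controls, 121, 126 and 122 CPM with shRNA-1 and 73.9, 74.5 and 70.0 CPM with shRNA-2. The shRNA-1 libraries were the highest and shRNA-2 the lowest, with no overlap between groups, at 0.55 ± 0.11 (adjusted p = 0.00304) and -0.21 (adjusted p = 0.132). Psmd10 (gankyrin), the partner of Psmc4, rose with shRNA-1 by 0.34 ± 0.12 (adjusted p = 0.0366) and was 0.074 with shRNA-2, and Psmd9 was 0.16 and -0.023, neither of which passed. The Psmd10 call ended without any shRNA-1 library or either of control replicates 2 and 3 (adjusted p up to 0.161). It also ended with total counts, no filter, the ribosomal RNA covariate, the ribosomal RNA genes left out, the length or GC trend taken out, or both shRNA-1 replicate 3 and shRNA-2 replicate 1 left out (up to 0.586). Psmd5 passed in all alternatives but total counts and the ribosomal RNA covariate (up to 0.0665).

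Summed over the genes chosen by symbol, the core particle was higher relative to the regulatory particle in the knockdown libraries. The core sum was 3674 ± 274 CPM (mean ± SD, n = 3) in control libraries, 5025 ± 59.9 CPM under shRNA-1 and 4118 ± 439 CPM under shRNA-2, and the regulatory sum was 4899 ± 209, 4850 ± 89.2 and 4384 ± 200.3. The log2 ratio of core to regulatory sum, from which library scaling cancels, was -0.38, -0.38 and -0.49 in control libraries, 0.028, 0.027 and 0.099 under shRNA-1 and -0.29, 0.10 and -0.096 under shRNA-2. All 6 knockdown libraries lay above the 3 controls, and the hairpins overlapped each other. Every regulatory and lid sum given here leaves out the lid subunit Shfm1, whose symbol does not match the rule. Shfm1 averaged 470 CPM in the controls, 1043 CPM with shRNA-1 and 917 CPM with shRNA-2. Counting it in would make the rise of the ratio smaller with both hairpins. The shRNA-1 libraries would still lie above the controls, while shRNA-2 replicate 1 would lie among them. The order of all 6 knockdown libraries thus holds for the chosen symbols only.

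The mean ratio exceeded the control by 0.47 with shRNA-1 and by 0.32 with shRNA-2 on the log2 scale, and sums over chosen genes are given here without a test. With shRNA-1 the core sum was 1.37 times the control, with all libraries above the controls, and the regulatory sum 0.990 times it, with overlap. With shRNA-2 the core sum was 1.12 times the control, with overlap, and the regulatory sum 0.895 times it, with all libraries below. These regulatory sums depend on the choice by symbol. With Shfm1 counted in, the regulatory sum would lie above the controls in all shRNA-1 libraries and would overlap them with shRNA-2. Scaled to total counts, the core sums were 1.15 and 0.959 times the control and the regulatory sums 0.834 and 0.771 times it, so the core sum with shRNA-2 changed direction and the ratios did not. The ATPase sum was 1640.0 ± 22.7 CPM in control libraries, 1331 ± 57.7 CPM under shRNA-1 and 1204 ± 41.8 CPM under shRNA-2. Its groups did not overlap. Psmc1, the only ATPase called with shRNA-1, averaged 560 CPM in control libraries and 299 CPM under shRNA-1. The lid sum overlapped in all groups (2197 ± 179.7, 2511 ± 157 and 2162 ± 251 CPM). With Shfm1 counted in, the lid sum would lie above the controls in all shRNA-1 libraries and would overlap them with shRNA-2.

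**Figure D4:**
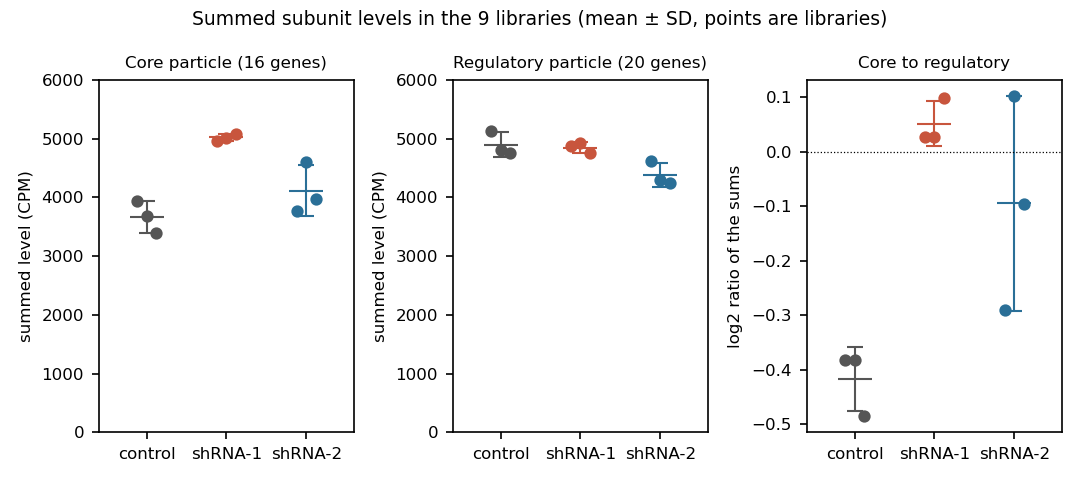
Summed CPM of the 16 core and 20 regulatory genes and the log2 ratio of the 2 sums in each of the 9 libraries, with points for libraries and bars for the mean ± SD of 3. The lid subunit Shfm1 is not in the sums, and with it the ratio of shRNA-2 replicate 1 would lie among the controls. The ratio lies between -0.49 and -0.38 in the controls and between -0.29 and 0.10 in the knockdown libraries, whatever the scaling, while the core sum with shRNA-2 falls below the control when libraries are scaled to total counts.

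The particles also differ in transcript length. The longest coding transcript had a median of 1162.5 bases over the 14 tested core genes (766 to 2911) and of 1887 over the 20 regulatory genes (1316 to 4397). Over all genes with a length, the median log2 fold change was lower for longer transcripts, from 0.37 for transcripts up to 1000 bases to -0.13 for those over 3000 with shRNA-1. For shRNA-2 it ran from 0.18 to -0.11. Within the class of 1000 to 1500 bases, the 11 subunits had a median of 0.44 with shRNA-1 and 0.074 with shRNA-2, beside 0.17 and 0.13 over all genes of that class. In the class of 1500 to 2000 bases, the 10 subunits had 0.054 and -0.15, beside 0.10 and 0.053.

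With each library's trend over length taken out, a fit added after the data had been seen, the core median was 0.36 and the regulatory median -0.015 with shRNA-1, against 0.46 and 0.059 without it. With shRNA-2 the medians were 0.0044 and -0.21, against 0.14 and -0.15. The core rises called with shRNA-1 then numbered 4 in place of 8, and with shRNA-2 0 in place of 4, while the ATPase falls with shRNA-2 stayed at 5. The core median stayed above the regulatory median in both comparisons.

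**Figure D5:**
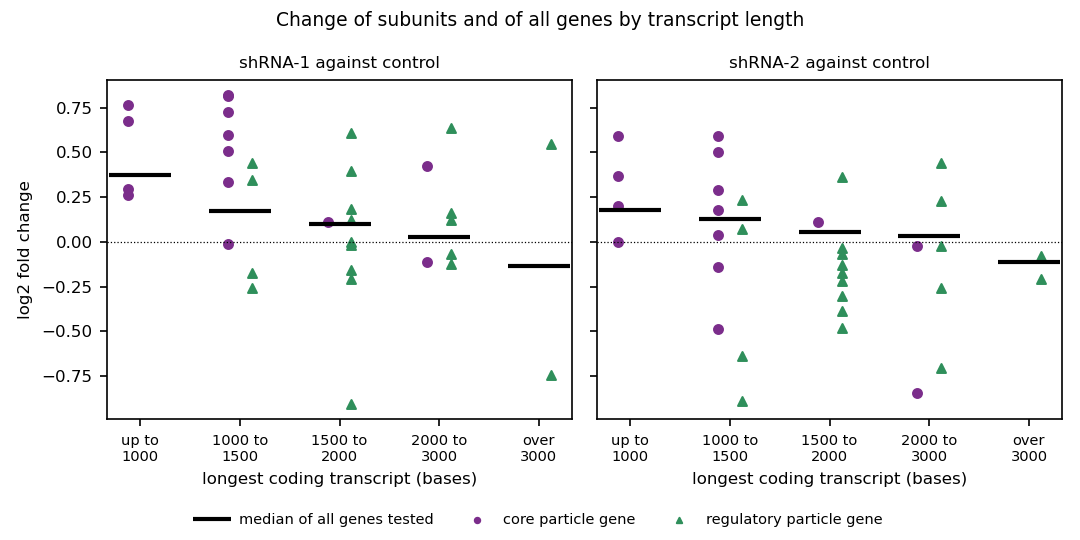
Log2 fold change of each tested subunit (circles for core, triangles for regulatory genes) by class of transcript length, with a bar at the median of all genes tested in that class, on the TMM scale. The bars step down from the shortest to the longest class with both hairpins, and most core genes lie in the 2 classes up to 1500 bases.

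Set against each other, the hairpins differed in 13 of the 34 subunits, 11 higher and 2 lower with shRNA-1 than with shRNA-2, where 19.7% of all genes were called higher and 21.3% lower. The strongest differences were in Psmd5 (0.76 ± 0.11 (adjusted p = 0.000251)), Psma3 (0.73 ± 0.15 (adjusted p = 0.00271)) and Psmc4 (0.72 ± 0.12 (adjusted p = 0.000675)), all higher with shRNA-1. Psmd14 (0.68), Psma6 (0.65), Psmc6 (0.58) and Psma1 (0.52) followed, with libraries that did not overlap and calls that held in all 21 alternatives. Psmd1 was lower with shRNA-1 by -0.66 ± 0.13 (adjusted p = 0.00172), and Psmc1 by -0.42 ± 0.13 (adjusted p = 0.0195).

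The differences in Psma2, Psma4, Psmb7, Psmc5 and Psmc1 were less firm. Psma2 (0.44 (adjusted p = 0.0234)) lost its call without shRNA-1 replicate 1 or 2 or shRNA-2 replicate 3 or with the GC trend taken out, and Psma4 (0.48 (adjusted p = 0.0133)) without shRNA-1 replicate 3. Psmb7 (0.69 (adjusted p = 0.0443)) lost it without shRNA-1 replicate 1 or 2, shRNA-2 replicate 2 or 3 or control replicate 1 or 2, and in 5 further alternatives, total counts and the length trend among them. Psmc5 (0.38 (adjusted p = 0.0185)) lost it without shRNA-1 replicate 3 or shRNA-2 replicate 1, with no filter or with only the groups compared, and Psmc1 without shRNA-1 replicate 1 or 3 or shRNA-2 replicate 3. Psma4, Psmc5 and Psmc1 also lost it with the ribosomal RNA covariate and without both shRNA-1 replicate 3 and shRNA-2 replicate 1. The residual level of Syncrip differed too, at 17.8 ± 2.13 CPM with shRNA-1 and 56.7 ± 9.05 with shRNA-2. Whether the differences in the subunits follow from it was not tested.

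The 4 core genes that rose with both hairpins differed between the hairpins by 0.31 for Psmb5, 0.23 for Psma5, 0.17 for Psmb2 and 0.099 for Psma7, none of which passed (adjusted p = 0.0736, 0.342, 0.549 and 0.659).

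Around the constitutive complex, the immunoproteasome subunits rose with shRNA-2. These subunits replace the constitutive catalytic ones when cells respond to interferon, and they are abundant in immune cells. Psmb9 stood at 57.9, 48.9 and 45.9 CPM in the controls, 59.1, 52.7 and 53.8 CPM with shRNA-1 and 136, 145 and 110.0 CPM with shRNA-2. The shRNA-2 libraries were far above both other groups, at 1.36 ± 0.14 (adjusted p = 1.55e-05) against 0.11 with shRNA-1. Psmb10 rose by 0.90 ± 0.14 (adjusted p = 0.000245) and Psmb8 by 0.61 ± 0.14 (adjusted p = 0.00381) with shRNA-2, against 0.0053 and 0.12 with shRNA-1.

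The log2 ratio of Psmb9 to its constitutive counterpart Psmb6 went from -2.23 ± 0.11 (SD, n = 3) in the controls to -0.86 ± 0.34 with shRNA-2, and stood at -2.37 ± 0.13 with shRNA-1. For Psmb8 over Psmb5 it was 3.31 ± 0.046, 2.76 ± 0.038 with shRNA-1 and 3.55 ± 0.10 with shRNA-2. For Psmb10 over Psmb7 it was -0.74 ± 0.19, -1.46 ± 0.35 under shRNA-1 and 0.16 ± 0.72 under shRNA-2, and of the 3 pairs this was the one whose shRNA-2 libraries overlapped the controls. Macrophage markers rose with shRNA-2 as well, where all 9 were called higher (median 3.56), beside 24.4% of all genes. Their summed levels are given above. With shRNA-1, 2 of 9 macrophage markers were called higher (22.2%, beside 17.4% of all genes), with a median of 1.48. No immunoproteasome gene was called with shRNA-1, and the median of these genes was 0.11. The part of macrophage-like cells in the rise of the immunoproteasome genes was not tested.

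Of the 5 genes listed for activators and an inhibitor of the core, Psme1 and Psme2, which form the interferon-inducible cap, rose with shRNA-2. The changes were 0.68 (adjusted p = 0.0103) and 1.27 (adjusted p = 0.00027). Psme2 was counted at a mean of 4.44 CPM in the controls and 10.7 CPM with shRNA-2, far below Psme1 (146 CPM in the controls). Whether reads of Psme2 are shared with other genes' transcripts was not examined, so its level is uncertain. The Psme1 call ended with total counts or the ribosomal RNA covariate (adjusted p up to 0.0524). Psme2 also rose with shRNA-1, by 0.81 (adjusted p = 0.0095), a call that ended without shRNA-1 replicate 2 or with total counts (adjusted p up to 0.0745). Psme3, Psme4 and the inhibitor Psmf1 were not called.

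Factors that build the core or carry it to the nucleus were mostly higher with shRNA-1, where 4 of 6 tested rose (66.7%, beside 17.4% of all genes). Akirin2, an adaptor for nuclear import of proteasomes, rose by 0.98 (adjusted p = 0.00221) and the chaperone Psmg4 by 0.72 (adjusted p = 0.00588), and Psmg4 rose with shRNA-2 by 0.67 (adjusted p = 0.00535). Psmg2, one partner of a chaperone pair for the alpha ring, had the largest change among the proteasome and ubiquitin genes analysed. It stood at 87.4, 72.4 and 64.0 CPM in the controls, 106, 99.8 and 74.3 CPM with shRNA-1 and 24.8, 20.6 and 19.2 CPM with shRNA-2. The shRNA-2 libraries were the lowest by a wide margin, at -1.79 ± 0.17 (adjusted p = 1.1e-05), and shRNA-1 gave 0.32 (adjusted p = 0.151). Its partner Psmg1 rose with shRNA-1 by 0.47 (adjusted p = 0.0197) and was 0.053 with shRNA-2, and the Psmg1 call ended without shRNA-1 replicate 1 or 2 or control replicate 3 (adjusted p up to 0.0846), with total counts, with the ribosomal RNA covariate or with the length trend taken out (up to 0.22). The Psmg4 call with shRNA-1 ended with the covariate (0.27). Psmg3 also rose with shRNA-1, by 0.58 (adjusted p = 0.0351). Its call ended without shRNA-1 replicate 1, 2 or 3 or control replicate 2 or 3 (adjusted p up to 0.142).

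Among 7 cofactors bound to the complex, 2 rose with shRNA-1, and 1 rose and 2 fell with shRNA-2. The 28.6% higher with shRNA-1 stands beside 17.4% of all genes. The 14.3% higher and 28.6% lower with shRNA-2 stand beside 24.4% and 24.2%. Shfm1, which encodes the smallest lid subunit (SEM1), stood at 561, 455 and 395 CPM in the controls, 1087, 1066 and 977 CPM with shRNA-1 and 1055, 932 and 763 CPM with shRNA-2. All 6 knockdown libraries lay above the controls, at 1.15 ± 0.17 (adjusted p = 0.000604) and 0.96 ± 0.17 (adjusted p = 0.000554), a larger rise than that of any of the 34 subunits under either hairpin. Uchl5, a deubiquitinase of the base, fell with shRNA-2, at -1.02 (adjusted p = 3.15e-05), and Usp14, another one, at -0.31 (adjusted p = 0.0304). The Usp14 call ended without shRNA-1 replicate 2, shRNA-2 replicate 1 or 3 or control replicate 2 or 3 (adjusted p up to 0.115), and in 5 further alternatives, no filter and the length trend among them.

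Of 12 genes for ubiquitin supply and shuttling, 3 rose and 1 fell with shRNA-1, and 3 rose and 3 fell with shRNA-2. With shRNA-2 these shares, 25% higher and 25% lower, were near those of all genes (24.4% and 24.2%). With shRNA-1 they were 25% and 8.33%, beside 17.4% and 17.3%. Ubqln4, a shuttle that brings ubiquitinated proteins to the proteasome, fell with both, by -0.66 (adjusted p = 0.00697) and -0.94 (adjusted p = 0.000417). Zfand5, an activator of the proteasome, rose with both, by 0.57 (adjusted p = 0.00431) and 0.68 (adjusted p = 0.000729). With shRNA-1, the Ubqln4 call ended with the ribosomal RNA covariate (adjusted p = 0.267), and the Zfand5 call ended with it or with total counts (adjusted p up to 0.0912).

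Among 4 genes of transcriptional control, Nfe2l1, the regulator of subunit genes, had 57.3, 69.8 and 64.6 CPM in the controls, 49.4, 48.8 and 45.6 CPM with shRNA-1 and 65.3, 31.7 and 42.1 CPM with shRNA-2. It was lower in all shRNA-1 libraries than in the controls and overlapped them with shRNA-2, and its changes of -0.41 (adjusted p = 0.146) and -0.46 (adjusted p = 0.0877) did not pass. Nfe2l2, its relative in the oxidative stress response, rose with shRNA-2, at 0.80 ± 0.16 (adjusted p = 0.00168), and was 0.14 with shRNA-1.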

How the data were processed

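The authors deposited raw read counts per gene symbol for each of 9 libraries. The submitters' processing notes name STAR 2.3.0e, HTSeq 0.6.0 and the mouse build mm10, and the labels' protocols give oligo-dT priming with random decamers for the other strand. The sources used here do not name the annotation release, the strand setting or the handling of multiply placed reads, so reads of overlapping genes and close copies cannot be told apart. Entries with the same symbol were summed (176 symbols, no subunit among them).

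After filterByExpr by group, 12663 genes were kept and scaled with TMM factors. All 9 libraries entered 1 edgeR quasi-likelihood fit (edgeR 4.0.16 in R 4.3.3) with the group as the only term, with Benjamini-Hochberg adjustment over all genes and a threshold of 0.05. The pipeline was tested on simulated counts. With 3 libraries per group the number of libraries limits precision more than the depth of 9559638 to 19483923 counts.

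The subunits, the lists and the naming rule were chosen with earlier results of these data known. The rule gave values in every library for the catalytic subunits, the ATPases, Psmd1, Psmd2, Psmd4 and Psmd14, up to 6 subunits called with both hairpins, and, per comparison, the 3 largest rises and 3 largest falls. For other genes it gave counts per list and up to 2 rises and 2 falls. Psma4, Psma6, Psmd6, Psmd7, Psmd11, Psmg1, Nfe2l1 and the remaining genes with values were added after their values were seen. Some genes are not reported here, and the list counts leave them out. Positions, lengths and shared 50-base stretches came from GENCODE M21 (GRCm38), with a length for 94.9% of genes tested, and promoters from RefSeq (GRCm38.p6).

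The alternatives used total counts, size factors of DESeq2 in edgeR, no filter, 5 CPM in 3 libraries, DESeq2 1.42.0, the replicate number as a block, only the groups compared, and each library left out. After the data had been seen came the ribosomal RNA share as a covariate, leaving out ribosomal RNA genes, taking out trends with length or GC content, and leaving out shRNA-1 replicate 3 with shRNA-2 replicate 1.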

Additional observations from a re-analysis of the deposited data

How the results depend on the processing

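No called change of a subunit reversed its sign in any of the 21 alternatives. Of the 15 calls with shRNA-1, 3 held in all of them, against 7 of 12 with shRNA-2 and 8 of 13 between the hairpins. Leaving out 1 library gave 9 to 16, 7 to 13 and 10 to 15 calls, 0 to 5 shared rises and 1 shared fall throughout. The ribosomal RNA covariate gave 3 calls with shRNA-1 and 0 shared rises. Total counts gave 0 shared rises and 6 shared falls, only the groups compared gave 2 and 2, and taking out the length trend gave 0 and 3. The cause of these changes was not tested. The log2 ratio of core to regulatory particle over control was 0.43 to 0.49 with shRNA-1 and 0.22 to 0.42 with shRNA-2 when 1 library was left out, and 0.61 with shRNA-1 when the ratio was taken, in each library, between the median levels of the 2 particles' tested genes in place of their sums. With 1 library left out, Syncrip ranged from -3.77 to -3.60 and from -2.07 to -1.87.

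The replicate numbers were not taken as pairs, since libraries with the same number deviated together in some pairs only (r from -0.13 to 0.34, with 6 of 9 libraries closest to their own number). With the replicate number as a block, 17 subunits were called with shRNA-1, 14 with shRNA-2 and 16 between the hairpins, with 6 shared rises and 1 shared fall. DESeq2 called 16, 14 and 15. Depth limits Psma8 and Psmb11, which had 6 counts or fewer in every library, while for the other subunits the spread between 3 libraries is the limit.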
